A study of Mus musculus with 10 samples.

Results

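The voltage-gated calcium and sodium channel genes of αTC1 cells were described before and after exposure to enzalutamide. αTC1 is a mouse line grown from an islet tumour whose cells make glucagon, so all libraries came from 1 tumour-derived line. The cells were kept in medium with 1 g/L glucose and received 10 μM enzalutamide, an androgen receptor antagonist, or its solvent DMSO for 48 h, with 5 libraries in each group. Polyadenylated RNA was sequenced. Channel genes were taken by name: every entry of the count table whose symbol starts with Cacna, Cacnb or Cacng, or reads Scn, a number and a or b. This gave 41 of 33212 entries, which are 40 different genes, because Cacng8 had a second entry with 0 counts. All 40 known members were listed and 0 were absent: 26 calcium channel genes and 14 sodium channel genes. A further 2 entries matched only in capitals (CACNG6 and CACNG7) and held 0 counts in all 10 libraries.

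A voltage-gated calcium channel is built around a pore-forming α1 subunit, and the α1 gene sets whether the current is of the L, P/Q, N, R or T type. Cytoplasmic β subunits and extracellular α2δ subunits bring the pore to the membrane and shape its gating, and the γ family holds both a muscle calcium channel subunit and proteins that accompany AMPA-type glutamate receptors. Voltage-gated sodium channels have 1 large pore subunit and small β subunits that act as auxiliary and adhesion proteins. Islet α cells are electrically excitable: sodium and T-type calcium currents take part in their action potentials, and calcium entry through P/Q and L type channels is linked to glucagon release.

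In enzalutamide-treated cells the most abundant L type, T type, β, α2δ and γ family genes had more transcript. The main pair of sodium channel pores changed in opposite directions. Of the channel genes tested 42.1% passed edgeR's test at an adjusted p under 0.05, near the 37.8% of all genes tested. Among genes with calcium channel names 6 rose. They were the L type pores Cacna1c and Cacna1d, the T type pore Cacna1i, the β subunit gene Cacnb3, the α2δ gene Cacna2d1 and Cacng7. Cacng7 is a γ family gene of the group that accompanies AMPA receptors. The largest rise was that of Cacna1i, 1.64-fold, and the smallest that of Cacna1c, 1.19-fold. Among sodium channels Scn8a rose 1.22-fold and Scn9a fell, being 1.43-fold lower in enzalutamide. No gene for an N type pore was detected, and P/Q and R type pore transcripts were scarce in both groups.

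Of the 40 genes, 9 had 0 counts in all 10 libraries, 12 had between 4 and 99 counts in total and were not tested, and 19 had enough counts to test. Levels are given as CPM, counts scaled to a library total of 1000000, with totals adjusted by the trimmed mean of M values, and ± is the SD over 5 libraries. In the quasi-likelihood test of edgeR, adjusted over all genes by Benjamini-Hochberg with a threshold of 0.05, 8 of the 19 passed (42.1%), 7 higher and 1 lower. Over all 14156 genes tested, 37.8% passed, 19% higher and 18.8% lower, so the share of channel genes that passed lay near that of all genes. The median log2 fold change was 0.29 over the 19 tested channel genes and 0.01 over all genes. Each of the 8 genes that passed was above the low-count limit in all 10 libraries. The values of the groups did not overlap for 7 of the 19, against 26.8% of all genes tested.

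**Figure D1:**
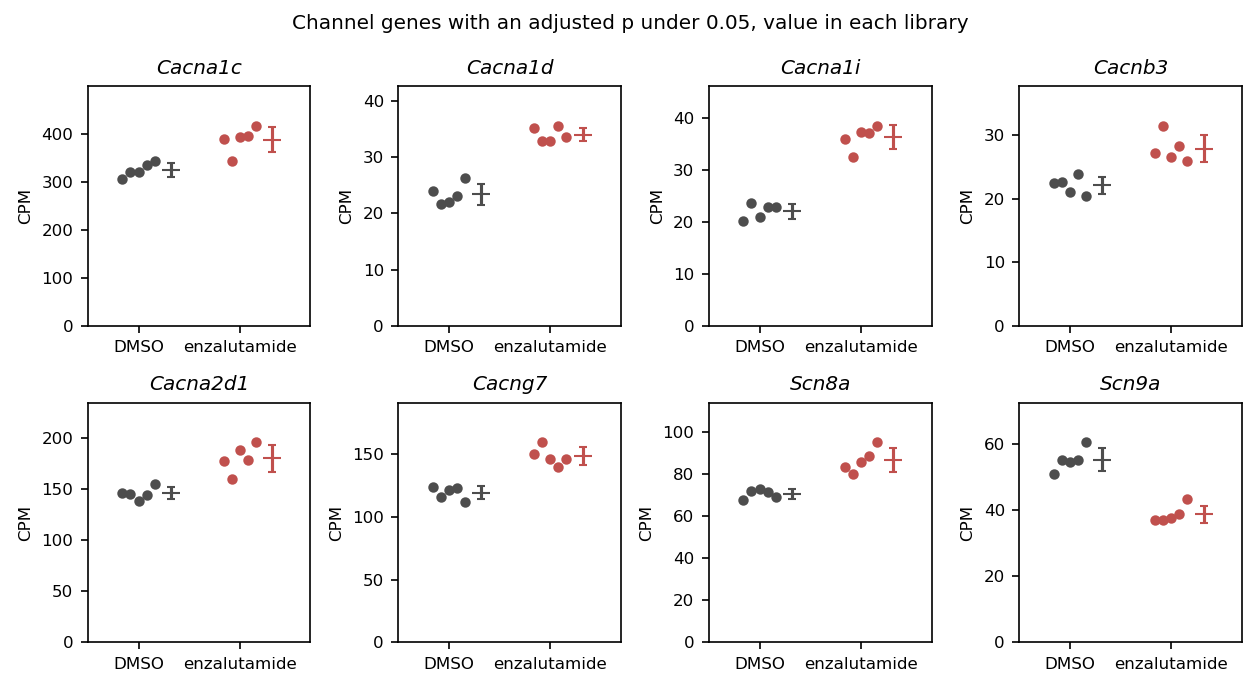
CPM of the 8 channel genes with an adjusted p under 0.05, 1 dot per library, with the mean and SD of 5 libraries at the right of each group. Axes start at 0, and the groups are separate for every gene except Cacna1c, where enzalutamide library 2 lies within the DMSO range.

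The libraries held between 59557697 and 68603842 counts, and channel genes took 0.0775 to 0.0816% of them in DMSO and 0.09 to 0.103% in enzalutamide. A count of 0 allows up to 3 counts, which is 0.0439 to 0.0497 CPM and covers counting error only. The α cell label was checked against markers. Gcg, which encodes glucagon, had 15269 ± 440 CPM in DMSO against 8466 ± 389 CPM in enzalutamide, and all 8 α cell markers were above 1 CPM in both groups. Among these, Irx1, Irx2 and Pcsk2 did not pass by edgeR's test: Irx1 was at 153 ± 8.33 and 156 ± 9.89 CPM (log2 fold change 0.02, adjusted p = 0.727), Irx2 at 187 ± 4.67 and 189 ± 6.03 CPM (0.01, adjusted p = 0.857) and Pcsk2 at 2224 ± 31.2 and 2270 ± 34.5 CPM (0.03, adjusted p = 0.313). Of 6 β cell markers 5 were under 1 CPM in both groups, with Ins1 and Pdx1 at 0 counts, and Sst and Ppy of δ and PP cells were also at 0. Summed levels were 19393 to 20631 CPM in DMSO and 11431 to 12737 CPM in enzalutamide for α cell markers, most of it Gcg, and 222 to 236 and 198 to 213 CPM for 5 neuronal markers, almost all of it from Snap25 and Tubb3, which endocrine cells also express. For 3 fibroblast markers the sum was 5.62 to 6.54 CPM in DMSO and 7.23 to 9.19 CPM in enzalutamide, most of it Pdgfra. Muscle, endothelial and blood marker sums were at most 1.39 CPM in every library. The part of these markers in the channel results was not tested. In bulk RNA, fewer cells of a type and less RNA per cell cannot be told apart.

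Upstream sequences are shown for the 4 genes that passed and have a single annotated start in RefSeq (GRCm38.p6): the T type pore Cacna1i, the α2δ gene Cacna2d1 and the γ family gene Cacng7, which rose, and the sodium pore Scn9a, which fell. Each line holds the 250 bases before the start, 5′ to 3′ on the gene's strand, at chr15:80286988-80287237 (plus strand), chr5:15934441-15934690 (plus), chr7:3332575-3332824 (plus) and chr2:66634963-66635212 (minus). Capitals mark matches to the motifs described after the sequences.
Cacna1i: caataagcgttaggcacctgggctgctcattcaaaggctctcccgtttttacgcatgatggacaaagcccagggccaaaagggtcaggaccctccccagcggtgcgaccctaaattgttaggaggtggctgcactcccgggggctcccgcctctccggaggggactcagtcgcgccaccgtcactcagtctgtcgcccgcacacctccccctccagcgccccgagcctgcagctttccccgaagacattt
Cacna2d1: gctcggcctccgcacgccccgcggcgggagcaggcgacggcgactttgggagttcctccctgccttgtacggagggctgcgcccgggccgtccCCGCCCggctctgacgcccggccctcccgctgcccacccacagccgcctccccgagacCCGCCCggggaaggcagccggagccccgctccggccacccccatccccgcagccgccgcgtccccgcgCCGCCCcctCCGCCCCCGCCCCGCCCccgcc
Cacng7: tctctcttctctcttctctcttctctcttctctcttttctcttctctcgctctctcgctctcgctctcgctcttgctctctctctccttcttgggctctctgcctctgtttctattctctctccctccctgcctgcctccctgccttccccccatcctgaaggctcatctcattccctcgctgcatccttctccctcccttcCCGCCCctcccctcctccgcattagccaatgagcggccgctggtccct
Scn9a: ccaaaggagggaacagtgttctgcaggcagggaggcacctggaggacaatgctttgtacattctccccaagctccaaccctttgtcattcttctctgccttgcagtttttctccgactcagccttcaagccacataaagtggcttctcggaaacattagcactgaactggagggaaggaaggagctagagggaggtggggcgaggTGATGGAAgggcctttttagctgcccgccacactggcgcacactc

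These windows differed in base composition. The Cacna2d1 window was 82.4% G and C, with a ratio of observed to expected CpG of 0.921. The values were 62.4% and 0.676 for Cacna1i, 58% and 0.687 for Cacng7, and 54.4% and 0.271 for Scn9a, where the medians over 32851 promoters were 52.4% and 0.373. Both strands were searched for 6 motifs. The GC box GGGCGG, found in 32.7% of all promoters, occurred 6 times before Cacna2d1, at positions -157, -99, -31, -22, -16 and -11 from the start with the last pair overlapping, and once before Cacng7, at -48. In all, 5 of the 13 windows of the 8 genes that passed held it. The composite ATF4 and C/EBP motif TGATGNAA, found in 3.45% of promoters, occurred once before Scn9a, at -45, and once before 1 of the 3 starts of Cacna1c. The Cacna1i window held none of the motifs. The cAMP response element TGACGTCA (1.55% of promoters), the AP-1 motif TGANTCA (6.75%) and the E-box CACGTG (6.02%) had no match in any of the 13 windows of the 8 genes that passed, and the TATA box TATAAA (12.4%) had matches in 1 of them, a start of Cacna1d. A match is a run of letters and not a binding site. RefSeq windows were found for 30 of the 40 genes, 41 windows in all.

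L type channels were represented by Cacna1c and Cacna1d. Cacna1c (ENSMUSG00000051331; chromosome 6, 118587240 to 119196418, minus strand, GRCm38/mm10) encodes the L type pore best known from heart and smooth muscle. In DMSO it was at 306.3, 319.1, 320.6, 335.4 and 343.9 CPM in libraries 1 to 5, and in enzalutamide at 388.8, 343.4, 393.5, 396 and 415.9 CPM. All enzalutamide libraries except library 2 lay above all DMSO libraries, and library 2 lay just under DMSO library 5. The mean rose from 325 ± 14.7 to 388 ± 26.7 CPM (log2 fold change 0.25 with SE 0.0443, adjusted p = 0.000204).

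Cacna1d (ENSMUSG00000015968, chromosome 14, 30039939 to 30491455, minus strand) encodes the L type pore that opens at more negative voltages. Its CPM values were 24.1, 21.7, 22, 23 and 26.4 in DMSO and 35.1, 32.9, 32.9, 35.5 and 33.5 in enzalutamide. All enzalutamide libraries were higher than all DMSO libraries. The mean rose 1.45-fold, from 23.4 ± 1.89 to 34 ± 1.24 CPM (log2 fold change 0.54 with SE 0.0562, adjusted p = 8.91e-07). Chdh overlaps 589 bases of Cacna1d exons on the opposite strand, but had only 54 counts in total over the 10 libraries. The retinal L type gene Cacna1f had 91 counts over all libraries and missed the threshold (log2 fold change 0.80 with SE 0.756, adjusted p = 0.451), and Cacna1s, the skeletal muscle pore, had 0.

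Cacna1a, the P/Q type pore, was low in both groups. It was at 0.61, 0.858, 0.446, 0.488 and 0.775 CPM in DMSO and 0.463, 1.13, 0.791, 1.02 and 0.492 CPM in enzalutamide, and the groups overlapped. Its log2 fold change was 0.30 with a 95% interval of -0.35 to 0.95 (adjusted p = 0.528), which leaves room for changes in either direction. Of the pair of pore genes used to mark α cell calcium channels, Cacna1d was thus well measured and Cacna1a was under 1 CPM on average. The N type pore gene Cacna1b had 0 counts in all libraries, and the R type gene Cacna1e had 18 counts in all, with 0 in 3 DMSO and 4 enzalutamide libraries.

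The T type, low-voltage-activated pores were represented by Cacna1i alone at a measurable level. Cacna1i (ENSMUSG00000022416; chromosome 15, 80287238 to 80398279, plus strand), the slowest gating T type pore and otherwise mostly neuronal, was at 20.3, 23.6, 20.9, 22.9 and 22.8 CPM in DMSO and 36, 32.5, 37.3, 37.1 and 38.5 CPM in enzalutamide. The groups were far apart relative to their spread. The mean rose from 22.1 ± 1.42 to 36.3 ± 2.29 CPM (log2 fold change 0.72 with SE 0.0576, adjusted p = 4.15e-08). The other T type genes, Cacna1g and Cacna1h, had 72 and 8 counts in all. Cacna1g ranged from 0 to 24 counts among DMSO libraries, so that such low entries varied widely within a group.

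Among β subunits Cacnb3 dominated. Cacnb3 (ENSMUSG00000003352; chromosome 15, 98630840 to 98644529, plus strand), which encodes a cytoplasmic subunit of neuronal and endocrine calcium channels, was at 22.5, 22.6, 21.1, 23.8 and 20.5 CPM in DMSO and 27.3, 31.5, 26.5, 28.3 and 26 CPM in enzalutamide. The groups did not overlap, and enzalutamide library 2 was the highest. The mean rose 1.26-fold (log2 fold change 0.34 with SE 0.0605, adjusted p = 0.00027).

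The other β subunit genes did not pass. Cacnb2, the main β subunit gene of heart, averaged 7.25 ± 1.1 CPM in DMSO against 8.34 ± 0.562 CPM in enzalutamide, with overlapping groups (log2 fold change 0.20, 95% interval -0.00074 to 0.405, adjusted p = 0.141). Cacnb4, a neuronal form, was at 0.763 ± 0.268 and 1.15 ± 0.228 CPM (log2 fold change 0.59 with SE 0.277, adjusted p = 0.107, but 0.0462 without DMSO library 3). A noncoding gene with 754 counts in all, A430018G15Rik, shares 1433 exon bases with Cacnb4 on the opposite strand, and Cacnb4 itself had 630 counts. Cacnb1, the skeletal muscle form, had 136 counts over the 10 libraries.

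Cacna2d1 was nearly the only α2δ gene. Cacna2d1 (ENSMUSG00000040118; chromosome 5, 15934691 to 16374511, plus strand), whose product is the receptor of the gabapentin drugs, was at 146, 145, 139, 144 and 155 CPM in DMSO and 178, 160, 189, 178 and 196 CPM in enzalutamide. Every enzalutamide value was above every DMSO value, with enzalutamide library 2 nearest to them. The mean rose from 146 ± 5.89 to 180 ± 13.5 CPM (log2 fold change 0.30 with SE 0.0463, adjusted p = 5.39e-05). Cacna2d2 and Cacna2d3 had 0 counts, and Cacna2d4, whose gene lies 40.1 kb from Cacna1c, had 256 counts in all and missed the threshold (log2 fold change -0.47 with SE 0.452, adjusted p = 0.458).

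In the γ family a single gene, Cacng7, was abundant. Cacng7 (ENSMUSG00000069806; chromosome 7, 3332955 to 3368221, plus strand) encodes a protein of the group that accompanies AMPA receptors and is not a subunit of the muscle channel. Its values were 123, 115, 121, 123 and 112 CPM in DMSO and 150, 159, 146, 139 and 145 CPM in enzalutamide, without overlap. The mean rose from 119 ± 5.1 to 148 ± 7.2 CPM (log2 fold change 0.32 with SE 0.0395, adjusted p = 7e-06). Its neighbours on chromosome 7 were at or near 0: Cacng8, 22.5 kb away, was at 0.501 ± 0.163 and 0.625 ± 0.29 CPM (adjusted p = 0.551), and Cacng6 had 0 counts. The muscle gene Cacng1 had 8 counts in all, Cacng4 44 and Cacng5 17, and Cacng2 (stargazin) and Cacng3 had 0.

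**Figure D2:**
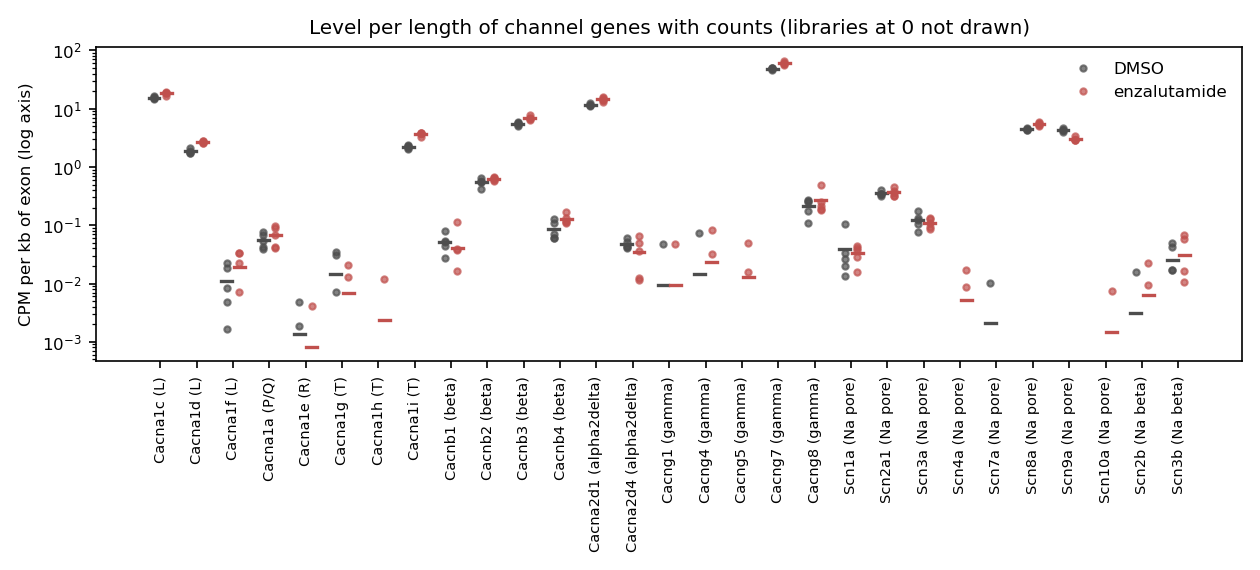
CPM per kb of exon, on a log axis, for 29 channel genes with counts, 1 dot per library with a value above 0 and a dash at the mean of 5 libraries, by class in parentheses. Of these, 8 stand above 1 CPM per kb in both groups, led by Cacng7, and the others lie below.

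Levels of different genes were compared per length, as CPM per kb of all annotated exons. Among the genes described here, the order in DMSO was Cacng7 (48.7 ± 2.09 CPM per kb), Cacna1c (15.3 ± 0.696), Cacna2d1 (11.7 ± 0.475), Cacnb3 (5.52 ± 0.329), Scn8a (4.48 ± 0.145), Scn9a (4.33 ± 0.264), Cacna1i (2.24 ± 0.144) and Cacna1d (1.86 ± 0.149), followed by Cacnb2 at 0.548 ± 0.0829. The DMSO ranges of Scn8a and Scn9a overlapped, as did those of Cacna1i and Cacna1d. All other neighbours among these 9 did not overlap. In enzalutamide Cacna1i (3.68 ± 0.232 CPM per kb) and Scn9a (3.03 ± 0.208) changed places, with overlapping ranges, and Cacna1d was at 2.69 ± 0.098. The first 6 places in DMSO were the same when the longest transcript was taken as length, but Cacna1i then stood below Cacna1d.

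Cacna1c made up most calcium pore transcript on this scale. Its share of the summed CPM per kb of all 10 α1 genes was 78.6 ± 0.558% in DMSO and 73.8 ± 0.651% in enzalutamide, and the libraries of the groups did not overlap. The share of Cacna1i was 11.5 ± 0.562% and 14.9 ± 0.147%, again without overlap, and that of Cacna1d was 9.51 ± 0.63% and 10.9 ± 0.653%, with ranges that overlapped. The summed calcium pore level was 19.5 ± 0.879 CPM per kb in DMSO and 24.8 ± 1.52 CPM per kb in enzalutamide. Cacnb3 held 88.9 ± 1.24% of the β subunit sum in DMSO, Cacna2d1 99.6 ± 0.0777% of the α2δ sum and Cacng7 99.5 ± 0.12% of the γ sum. These sums and shares are descriptions of genes chosen by name and were not tested.

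**Figure D3:**
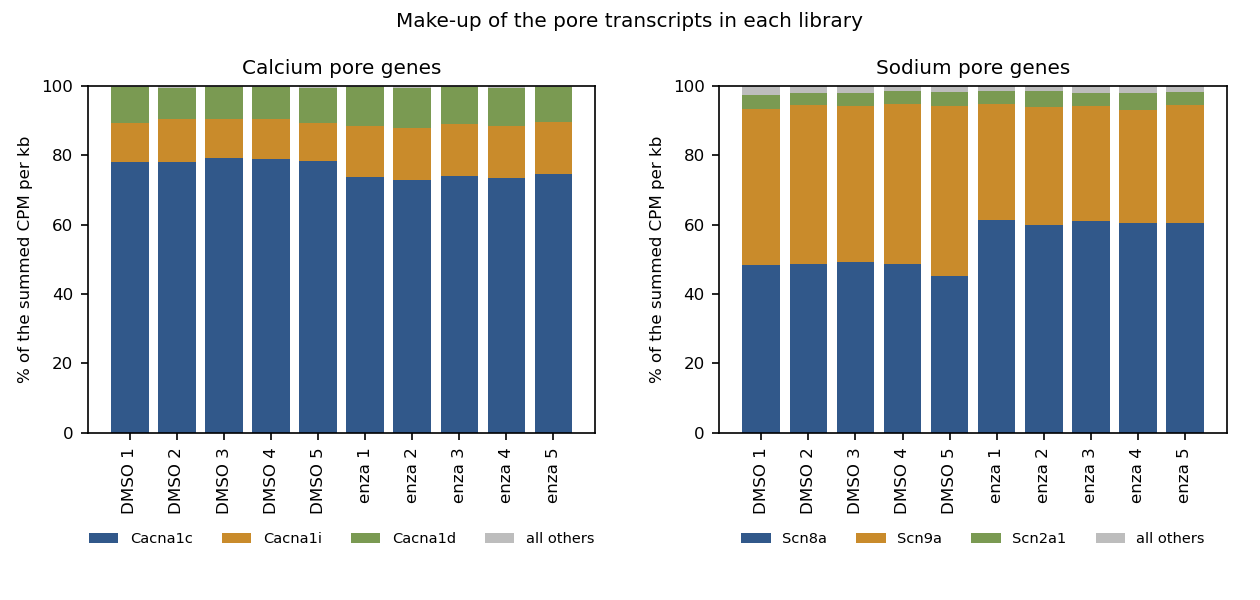
Share of each pore gene in the summed CPM per kb of its class, in percent, with 1 bar per library, for calcium pores on the left and sodium pores on the right. Cacna1c takes 78.2 to 79.4% of the calcium pore sum in DMSO and 73 to 74.7% in enzalutamide, and Scn8a takes 45.2 to 49.1% and 59.8 to 61.3% of the sodium pore sum.

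Sodium pores were those of Scn8a and Scn9a, which changed in opposite directions. Scn8a (ENSMUSG00000023033; chromosome 15, 100869858 to 101045938, plus strand), the pore of nodes of Ranvier and axon initial segments, was at 67.5, 72, 73, 71.6 and 69.1 CPM in DMSO and 83.1, 79.9, 85.6, 88.7 and 95 CPM in enzalutamide. All enzalutamide values were the higher ones. The mean rose from 70.6 ± 2.29 to 86.5 ± 5.74 CPM (log2 fold change 0.29 with SE 0.0444, adjusted p = 5.43e-05).

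Scn9a (ENSMUSG00000075316; chromosome 2, 66480080 to 66634962, minus strand), the pore of pain-sensing neurons and a main sodium pore of islet cells, was at 51, 55.2, 54.5, 55.2 and 60.4 CPM in DMSO and 37, 36.9, 37.7, 38.7 and 43.3 CPM in enzalutamide. The groups did not overlap, and library 5 was the highest of both. The mean fell from 55.3 ± 3.37 to 38.7 ± 2.65 CPM (log2 fold change -0.51 with SE 0.0537, adjusted p = 9e-07). An antisense gene, Gm13629, shares 180 exon bases with Scn9a and had 47 counts in all.

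Per length, the ratio of Scn8a to Scn9a was 1.04 ± 0.0642 in DMSO, with libraries between 0.926 and 1.09, and 1.81 ± 0.0419 in enzalutamide, between 1.76 and 1.86. The summed sodium pore level was 9.34 ± 0.305 CPM per kb in DMSO and 9.05 ± 0.595 CPM per kb in enzalutamide, with overlapping ranges. Scn9a held 46.3 ± 1.52% of it in DMSO and 33.5 ± 0.642% in enzalutamide.

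None of the neighbours of Scn9a in the sodium channel cluster of chromosome 2 passed, by edgeR's test. Scn2a1, a neuronal pore, was at 4.41, 4.09, 4.37, 4.39 and 5.16 CPM in DMSO and 4.1, 4.97, 4.12, 5.85 and 4.52 CPM in enzalutamide (log2 fold change 0.07, 95% interval -0.17 to 0.31, adjusted p = 0.692). Scn3a, regarded as a main sodium pore of islet α cells, was only at 1.54 ± 0.472 and 1.37 ± 0.259 CPM (log2 fold change -0.17, 95% interval -0.64 to 0.30, adjusted p = 0.635). Scn1a, 39.2 kb from Scn9a, had 269 counts in all (adjusted p = 0.764), and Scn7a, 38.5 kb away on the other side, had 5. A difference in response between Scn9a and these genes was not tested. Scn4a and Scn10a had 12 and 4 counts, while Scn11a had 0.

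Among genes of the auxiliary sodium channel subunits, Scn3b and Scn2b had 99 and 15 counts in all and Scn4b had 0.

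**Figure D4:**
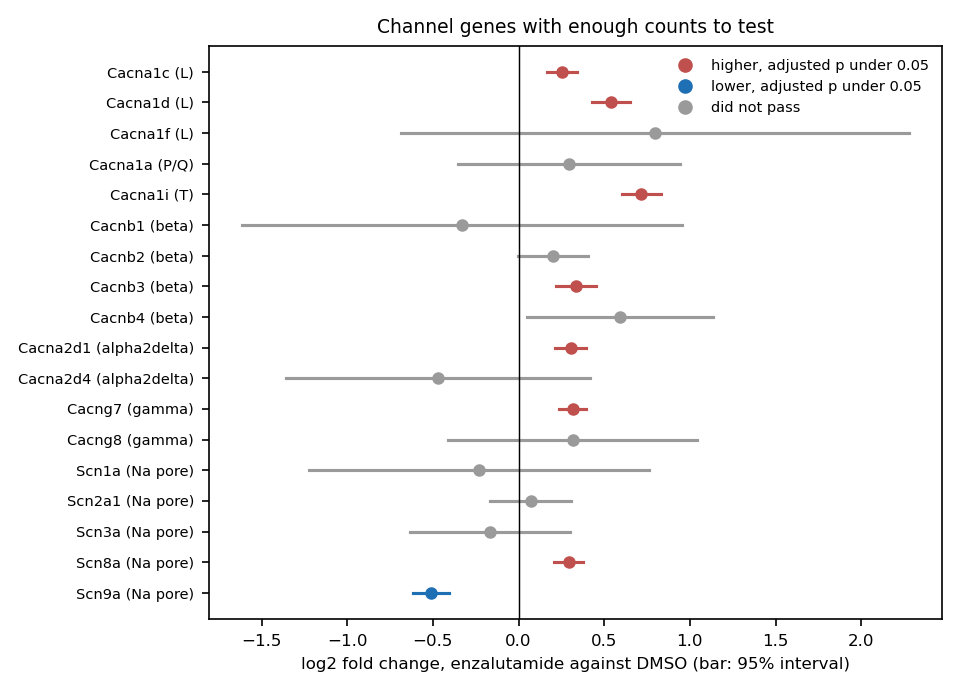
Log2 fold change of enzalutamide against DMSO for 18 of the tested channel genes, with 95% intervals, by class in parentheses. With an adjusted p under 0.05, 7 genes lie above 0 and Scn9a below it, and the widest intervals belong to genes under 1 CPM.

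The 6 tested genes under 1 CPM in both groups (Cacna1f, Cacna1a, Cacnb1, Cacna2d4, Cacng8 and Scn1a) had adjusted p-values between 0.451 and 0.764 and standard errors between 0.331 and 0.756 on the log2 scale. Counting error alone would give them standard errors between 0.134 and 0.315, so the spread between libraries exceeded counting error. Of the 13 channel genes at 1 CPM or more in either group, 8 passed, against 43.8% of all 11985 tested genes at that level. The libraries are called biological replicates, but nothing says that they came from separate cultures, and the p-values then rest only on how much these libraries differ, which may be technical.

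Partners of the channels, listed by their known roles, moved in both directions. Of 46 such genes 36 could be tested, and 8 were higher and 10 lower, with a median log2 fold change of 0.00. Over all genes tested 37.8% passed, 19% higher and 18.8% lower. Among 16 genes whose products bind or traffic calcium channels, 11 were tested, 5 fell and 1 rose. Calmodulin is the calcium sensor that is bound to the pore and drives calcium-dependent inactivation. Calm2, which encodes it, was at 536, 498, 543, 516 and 493 CPM in DMSO and 423, 456, 434, 446 and 392 CPM in enzalutamide, and the groups did not overlap. The log2 fold changes of Calm2 and Calm3 were -0.27 (SE 0.0396, adjusted p = 4.41e-05) and -0.25 (SE 0.0287, adjusted p = 2.59e-06). Calmodulin genes encode the same protein and have similar copies elsewhere in the genome, so the split of counts among them is less certain.

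Cabp1, a calmodulin relative that binds the same channels and slows their inactivation, rose from 11.4 ± 1.11 to 18.2 ± 1.55 CPM (log2 fold change 0.68 with SE 0.0783, adjusted p = 2.6e-06). Rimbp2, which ties calcium channels to release sites, fell from 217 ± 4.1 to 174 ± 9.59 CPM (log2 fold change -0.31 with SE 0.0361, adjusted p = 2.66e-06). Akap5, which encodes an anchoring protein for kinases at L type channels, was named after its values were seen. It also fell, from 6.39 ± 0.485 to 3.99 ± 1.93 CPM, with overlapping groups (log2 fold change -0.68 with SE 0.254, adjusted p = 0.0431). Enzalutamide libraries 2 and 3 were at 1.64 and 2.24 CPM. Enzalutamide libraries 1, 4 and 5 were at 4.85 to 5.9 CPM, against 5.82 to 6.96 CPM in DMSO. The small GTPases of the RGK group, which suppress calcium channels, were near 0: Rrad had 0.182 CPM in DMSO and 0.126 CPM in enzalutamide on average (adjusted p = 0.606), and Gem and Rem2 had 20 and 34 counts over the 10 libraries.

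All 13 calcium-dependent kinase and phosphatase genes could be tested, and 3 rose and 2 fell, where 37.8% of all genes tested passed. Camk4, a nuclear calmodulin-dependent kinase, fell from 153 ± 4.29 to 114 ± 6.32 CPM (log2 fold change -0.42 with SE 0.039, adjusted p = 2.08e-07). The calcineurin genes differed among themselves. The catalytic subunit genes Ppp3ca and Ppp3cc rose (log2 fold changes 0.25 and 0.64, adjusted p = 0.000398 and 0.00107), and the regulatory subunit gene Ppp3r1 fell (-0.12, adjusted p = 0.00351). Camk1d, a further calmodulin-dependent kinase gene, rose from 0.649 ± 0.219 to 1.12 ± 0.274 CPM with overlapping groups (log2 fold change 0.79 with SE 0.296, adjusted p = 0.0447), and was also named after its values were seen.

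Genes that anchor or modulate sodium channels had 2 rises and 2 falls among 6 tested, beside 37.8% of all genes tested that passed. Ank3, whose product ankyrin-G holds sodium channels at the axon initial segment, fell from 175 ± 14.2 to 123 ± 6.46 CPM (log2 fold change -0.52 with SE 0.0506, adjusted p = 4.06e-07). Ank2, for ankyrin-B, rose from 208 ± 9.47 to 284 ± 20.3 CPM (0.45, SE 0.0454, adjusted p = 5.58e-07). Sptbn4, a spectrin of the same membrane scaffold, rose (0.49, SE 0.0462, adjusted p = 2.67e-07), and Fgf12, an intracellular factor that binds the tail of sodium pores, fell (-0.27, SE 0.0749, adjusted p = 0.00917). The groups did not overlap for any of these 4 genes.

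The sodium leak channel is a relative of these pores that sets the resting conductance together with the large proteins of Unc79 and Unc80. Its pore gene Nalcn had 4 counts, all in 1 enzalutamide library, whereas Unc80 had 564 ± 30.4 CPM in DMSO against 602 ± 55.7 CPM in enzalutamide and Unc79 at 90 ± 3.83 and 90.4 ± 3.94 CPM. Neither passed (adjusted p = 0.195 and 0.915), and both were named after their values were seen. Fam155a, which encodes a chaperone of the same complex, rose from 32.3 ± 1.17 to 38.7 ± 2.23 CPM (log2 fold change 0.26 with SE 0.0487, adjusted p = 0.000357). The endolysosomal channel genes moved apart: Tpcn1 rose (0.26, SE 0.0396, adjusted p = 6.32e-05) and Tpcn2 fell (-0.47, SE 0.0873, adjusted p = 0.000347).

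**Figure D5:**
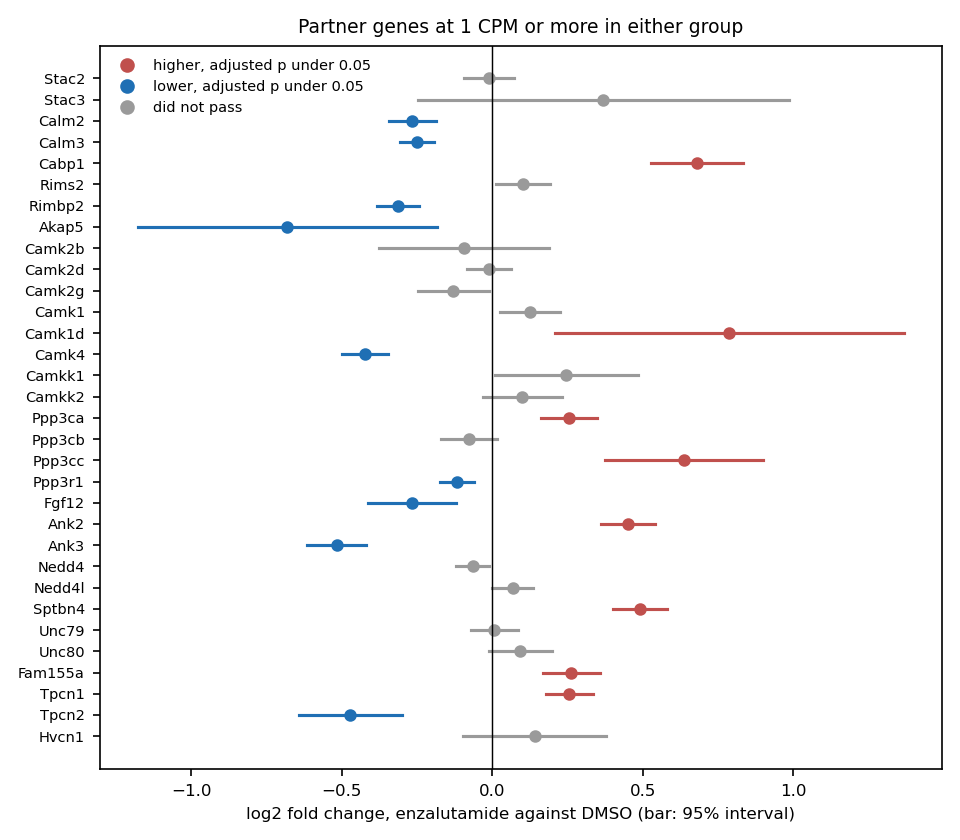
Log2 fold change of enzalutamide against DMSO, with 95% intervals from a normal quantile, for tested partner genes at 1 CPM or more in either group. Calm2 and Calm3 lie below 0, while Cabp1, Ank2 and Sptbn4 lie above it.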

How the data were processed

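Counts per Ensembl gene were deposited by the authors as whole numbers, with no normalization. HISAT2, StringTie, DESeq2 and mm10 are named in the submitters' processing notes, without roles or versions, and whether the counts came from reads or from StringTie's estimates is not given in the sources used here, nor is the strand setting. A second deposited table held a signal per gene: each value times DESeq2's size factor gave the count within 0.01 in 100% of 20039 matched rows. It served as an alternative, and 0 of its or the count table's library columns stayed out.

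The test across genes used edgeR 4.0.16 under R 4.3.3 (filterByExpr, trimmed mean of M values, quasi-likelihood test, no covariates), with Benjamini-Hochberg adjustment over 14156 genes. Each SE is the absolute log2 fold change over the square root of F, and 95% intervals use a normal quantile. Such intervals are narrower than the F test implies. For the partner Nedd4l the interval was 0.00014 to 0.134, although the unadjusted p in edgeR's test was 0.0662. Positions and exon lengths came from GENCODE M21, where 96.53% of identifiers were found, and upstream sequences from RefSeq. Libraries of a group differed by more than counting error, with 8.98 to 35.3 as chi-square over its degrees of freedom. Pairs with enzalutamide library 2 or 5 had 15 to 35.3, the highest being that of 2 with 5. The other enzalutamide pairs had 8.98 to 10.1, and DMSO pairs 9.3 to 13.4.

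Members, lists and tests were chosen with earlier results of these data known. Channel genes at 1 CPM or more were described one by one, with up to 4 passing partners per list by adjusted p, and Gem, Rrad, Rem2, Nalcn, Calm2 and Calm3. A few genes that count in the totals are not reported here one by one. The partner Fam155b had no entry under that symbol. Alternatives used other scaling, filters, DESeq2 1.42.0, limma 3.58.1, a replicate block, summed symbols, each library left out, and, added after the data were seen, GC and length trends removed.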

Additional observations from a re-analysis of the deposited data

Results flagged for a closer look

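Some libraries lay far from the other 4 of their group in a gene's CPM. This was found in 6 of 76 groups examined, where chance gives about 1 in 20. Among channel genes, Scn9a was at 43.3 CPM in enzalutamide library 5, against 36.9 to 38.7 CPM in the other 4, and still below all DMSO libraries. Scn1a was at 1.16 CPM in DMSO library 3, against 0.152 to 0.368 CPM, and Cacng8 at 1.13 CPM in enzalutamide library 2, against 0.435 to 0.596 CPM. Among partners, Camk4 was at 145 CPM in DMSO library 3 (others 153 to 155), Ppp3r1 at 275 CPM in enzalutamide library 1 (others 292 to 297) and Tpcn1 at 51 CPM in DMSO library 3 (others 47.3 to 48.2).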

How the results depend on the processing

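All 8 channel genes that passed kept their direction and call under each of 21 alternatives, with a highest adjusted p of 0.00183. The count of channel genes called was 8 to 9, the ninth being Cacnb4 without DMSO library 3, that of partners 16 to 20 and that of all genes 4884 to 5740. The calls of the partners Akap5 and Camk1d, both near the threshold, were not followed one by one under the alternatives. With total-count scaling 3285 of all genes were higher and 2131 lower. Replicate numbers gave no clear sign of pairing: deviations of same-numbered libraries correlated between -0.00849 and 0.0451. The libraries numbered 3 and 5 were each other's best match, and those numbered 1, 2 and 4 were not. Such correlations cannot show whether same-numbered cultures were handled together. With the replicate block 8 channel genes, 18 partners and 5296 genes in all were called.

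Genes that did not pass changed sign in some settings, and the cause was not tested. The log2 fold change of Scn1a was 0.029 with the replicate block, 0.0615 in limma-voom and 0.0563 and 0.0097 in limma-trend with pseudocounts of 1 and 8, and -0.45 to 0.53 with 1 library left out. With 1 library left out, Cacng8 had -0.0105 to 0.42, Scn2a1 -0.0187 to 0.13 and Unc79 -0.0159 to 0.0334, and Unc79 had -0.0169 with GC and length trends removed. Unc80 passed without enzalutamide library 2 (adjusted p = 0.00487).

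Taking the longest transcript as length moved levels in DMSO because that length is shorter: the sums became 29.5 CPM per kb for calcium pores, 9.69 for β, 19.7 for α2δ, 54 for γ and 12.5 for sodium pores. Shares of the calcium pore sum became 83.7% for Cacna1c, 8.22% for Cacna1d and 7.65% for Cacna1i, and those of the β sum 14.9% for Cacnb2 and 83.4% for Cacnb3. For the 6 tested channel genes under 1 CPM the fitted standard errors (0.331 to 0.756) exceeded those of counting error alone (0.134 to 0.315).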
